A study of Gallus gallus with 15 samples.

Results

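Liver RNA of 3 Yeonsan Ogye males (Og) was set against that of 3 White Leghorn males (WL), 6 of the 15 arrays in a study of 5 chicken breeds. The arrays were chosen by their labelled breed, and all 18308 features of the array entered the comparison. White Leghorn was the control breed, and the other 9 arrays hold 3 males each of Hwangbong (Hw), Hoengseong Yakdak (Ya) and Hyunin Black (Bl), which like Yeonsan Ogye are Korean native breeds. All birds were 13 weeks old, untreated, hatched from farm eggs and reared together with free access to feed. The labels do not say which farm supplied the eggs of which breed, so breed and egg source cannot be told apart, and they name no strain or line within a breed. Birds are named by breed code and replicate number, as in Og 1. Levels are log2 expression values, differences are Og minus WL on that scale with the standard error (SE) of the model, and 1 unit is a 2-fold ratio.

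Yeonsan Ogye is a black-feathered breed whose skin, bones and internal organs are black, a trait called fibromelanosis. In black-skinned chickens this trait goes with a rearrangement that duplicates the region of EDN3, which encodes endothelin 3, a peptide that drives the growth of pigment cell precursors. White Leghorn is a white-feathered egg-laying breed. In chickens the liver is the main site of fatty acid synthesis, it makes yolk lipoproteins under estrogen in laying hens, and it disposes of nitrogen by building purines and oxidising them to uric acid.

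The 6 arrays carried a liver profile. Their medians lay between 6.14 and 6.16, but the deposited values were already normalised across arrays, which evens out medians. Correlations across features were 0.984 to 0.987 between Og birds, 0.978 to 0.987 between Og and WL birds and 0.983 to 0.99 between WL birds. Albumin (ALB), the main plasma protein of liver, stood at 13.78, 13.82 and 13.79 in Og birds, against 13.85, 13.81 and 13.79 in WL birds. Over all features the median difference was -0.01, the 5th and 95th percentiles were -0.37 and 0.35, 86 features were above 1 and 83 were below -1. Array background was not measured, so levels under 5.21, as the dimmest features of the array have, are not shown to be above it, and a difference from or to such a level may be understated.

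At an adjusted p under 0.05 over all features, 19 features rose and 16 fell in Og livers, which is 0.191% of those tested (0.104% higher and 0.0874% lower). A gene symbol could be given to 23 of them, 13 higher and 10 lower, and the other 12 carry no single symbol. Among the named genes that rose were the cytokine receptor subunit CRLF2, the yolk lipoprotein component APOV1, the stress protein TP53INP1 and the ATP synthase subunit ATP5E. Among those that fell were the MHC-encoded B-G, the neurexophilin NXPH2, the transcription factor KLF15 and the small GTPase RAB23. In all 35 the Og birds lay on 1 side of the WL birds, as they did in 6.12% (above) and 6.84% (below) of all features. In 12 of the 35 they also lay outside the range of all 12 birds of the other breeds. Over all features this held for 0.339% (above) and 0.344% (below). Against the same WL birds, 29 of the 35 differed in the same direction in each of Bl, Hw and Ya. The 35 were chosen by their difference from these WL birds, so some of this agreement is built in. The share over all features was not counted. An unadjusted p under 0.05 was reached by 1673 features, or 9.14%. The count of 35 fell to 20 without Og 2, 12 without Og 3, 23 without WL 1, 17 without WL 2 and 14 without WL 3, and was 39 without Og 1.

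**Figure D1:**
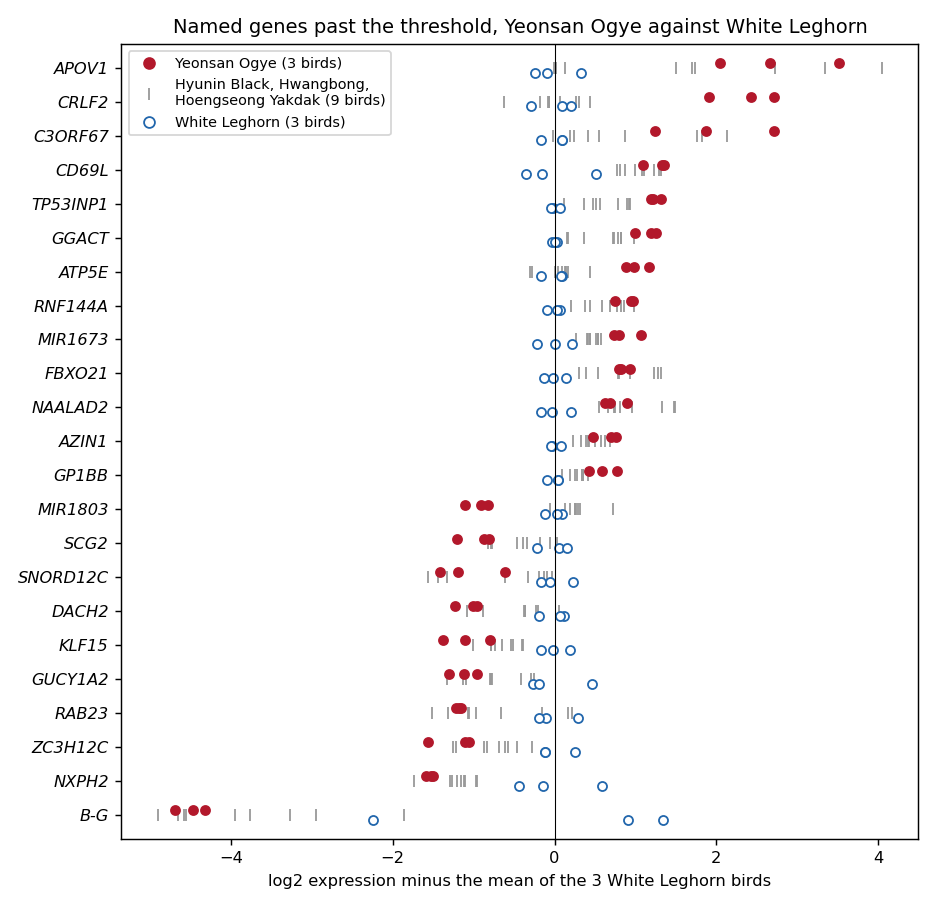
Log2 expression of the 23 named genes that passed, per bird, as the difference from the mean of the 3 WL birds (x axis, log2 units). Red points are Og birds, grey ticks the 9 birds of Hyunin Black, Hwangbong and Hoengseong Yakdak, and open blue circles WL birds. Red and blue do not overlap for any gene. For CRLF2, ATP5E and MIR1803 the grey ticks lie with the WL birds, and for B-G, NXPH2 and CD69L they lie apart from 2 or 3 of the WL birds and towards the Og birds.

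CRLF2 rose most among the named genes of immune and blood cells. It encodes a subunit of the receptor for the cytokine TSLP in mammals. Its level was 6.96, 7.24 and 6.44 in Og birds, against 4.62, 4.24 and 4.74 in WL birds. Every Og bird lay above every WL bird by a wide margin, and all 9 birds of the other native breeds, at 3.91 to 4.97, lay with the WL birds. The difference was 2.34 ± 0.25, a 5.07-fold ratio (adjusted p = 0.00181), and it passed whichever of the 6 arrays was left out (adjusted p up to 0.014). The WL level lies in the range not shown to be above background.

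B-G, which encodes a butyrophilin-related surface antigen of the MHC, had the largest difference of the 35. Og birds had 3.98, 3.84 and 3.62, against 9.21, 9.65 and 6.06 in WL birds. The Og birds were all low and close together, while WL 3 lay far below the other WL birds and still above the Og birds. The difference was -4.49 ± 0.72 (adjusted p = 0.0234), a level 22.5-fold higher in WL. Against the same WL birds it was -2.92 in Bl, -3.86 in Hw and -4.71 in Ya. B-G genes form a family of near-identical copies that varies between haplotypes, so which copies these probes read is uncertain. Its call was lost without Og 1, Og 2, Og 3, WL 1 or WL 2 (adjusted p up to 0.0942).

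CD69L, named for the lymphocyte activation marker CD69, and GP1BB, a subunit of the thrombocyte receptor for von Willebrand factor, both rose. CD69L had 8.18, 8.21 and 7.95 in Og birds, against 6.50, 7.36 and 6.70 in WL birds, a difference of 1.26 ± 0.20 (adjusted p = 0.0234). A lower-ranked feature of the same gene, averaging 9.53 in Og and 9.18 in WL birds, differed by 0.35 ± 0.19 and did not pass (adjusted p = 0.619). The groups did not overlap at the feature that passed, with WL 2 the nearest to the Og birds. GP1BB, at 5.72, 5.37 and 5.53 in Og birds against 4.99, 4.99 and 4.85 in WL birds, differed by 0.60 ± 0.11 (adjusted p = 0.0429). Its Og levels were above those of all 12 birds of the other breeds. GP1BB did not pass against the mean of the other native breeds (adjusted p = 0.265). In bulk liver, more cells of a type and more RNA per cell cannot be told apart. The CD69L call was lost without Og 1, Og 2, Og 3, WL 1 or WL 3 (adjusted p up to 0.0865), and that of GP1BB without any array except Og 2 (up to 0.149).

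TP53INP1, FBXO21, RNF144A, GGACT and AZIN1, of stress response, ubiquitin ligation, crosslink and polyamine handling, rose in Og livers. TP53INP1, a p53-induced protein of cell death and autophagy, stood at 9.28, 9.18 and 9.15 in Og birds, against 7.94, 7.92 and 8.03 in WL birds. Both groups were tight, and the Og birds lay above all 12 others. TP53INP1 did not pass against the mean of the other native breeds (adjusted p = 0.147). It rose by 1.24 ± 0.17, or 2.35-fold (adjusted p = 0.0101), and passed with any array left out (up to 0.0364). FBXO21, the substrate-binding part of a ubiquitin ligase, had 7.60, 7.72 and 7.58 in Og birds, against 6.77, 6.65 and 6.93 in WL birds. Its rise of 0.85 ± 0.10 (adjusted p = 0.00389) also passed with any array left out (up to 0.0212), but not with the 6 Og and WL arrays alone (0.0936), and Hw birds, 1.27 above WL, were higher still. The ubiquitin ligase RNF144A had 5.66, 5.89 and 5.86 in Og birds, against 4.82, 4.98 and 4.95 in WL birds, a rise of 0.88 ± 0.14 (adjusted p = 0.0219). Against the same WL birds RNF144A differed by 0.89 in Bl, 0.52 in Hw and 0.49 in Ya.

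GGACT, an enzyme that breaks down gamma-glutamyl crosslinks, had 11.80, 11.74 and 11.54 in Og birds, against 10.57, 10.51 and 10.55 in WL birds. The WL birds were nearly identical, and every Og bird lay above all 12 others. GGACT did not pass against the mean of the other native breeds (adjusted p = 0.34). The rise was 1.15 ± 0.21 (adjusted p = 0.042). AZIN1, which holds back the breakdown of ornithine decarboxylase and so favours polyamine synthesis, had 9.14, 9.43 and 9.37 in Og birds, against 8.63, 8.75 and 8.62 in WL birds (0.65 ± 0.12, adjusted p = 0.042). A lower-ranked AZIN1 feature, averaging 8.84 in Og and 8.33 in WL birds, differed by 0.51 ± 0.12 without passing (adjusted p = 0.138). RNF144A and AZIN1 were lost whenever an array other than Og 1 was left out (up to 0.0795 and 0.166), and GGACT whichever of the 6 was left out (up to 0.141).

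KLF15, ZC3H12C and DACH2, regulators of transcription or of RNA breakdown, fell. KLF15, a transcription factor that promotes amino acid breakdown in the fasting liver of mice, had 9.13, 8.55 and 8.82 in Og birds, against 9.91, 10.12 and 9.76 in WL birds. Og and WL birds did not overlap, and the other native birds, at 8.92 to 9.54, overlapped the Og birds and lay below the WL birds. The fall was 1.09 on the log2 scale (SE 0.18, adjusted p = 0.0234). ZC3H12C, of a family of RNA-cutting zinc-finger proteins, had 4.92, 4.46 and 4.96 in Og birds, against 5.90, 6.27 and 5.90 in WL birds (-1.25 ± 0.21, adjusted p = 0.0317). DACH2, a transcriptional cofactor of development, had 4.55, 4.77 and 4.82 in Og birds, against 5.90, 5.59 and 5.85 in WL birds (-1.07 ± 0.19, adjusted p = 0.0415). For both the birds of a breed lay close together, and the Og levels are in the range not shown to be above background. KLF15 was lost whenever an array other than Og 1 was left out (up to 0.103), and ZC3H12C and DACH2 whichever array was left out (up to 0.127 and 0.126).

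Genes of signalling and secretion made up most of the remaining named falls. NXPH2, a neurexophilin, a secreted ligand of neurexins in brain, had 4.36, 4.45 and 4.42 in Og birds, against 5.81, 6.54 and 5.51 in WL birds (-1.55 ± 0.22, adjusted p = 0.0146). RAB23, a small GTPase that restrains hedgehog signalling in mammals, had 5.51, 5.45 and 5.49 in Og birds, against 6.96, 6.57 and 6.48 in WL birds (-1.19 ± 0.19, adjusted p = 0.0227). The Og birds were tightly grouped in both, and RAB23 in Ya differed from WL by only 0.08, against -1.01 in Bl and -1.19 in Hw. Against the same WL birds NXPH2 differed by -1.28 in Bl, -1.26 in Hw and -1.08 in Ya. NXPH2 did not pass against the mean of the other native breeds (adjusted p = 0.622). Its Og levels are in the range not shown to be above background. GUCY1A2, a subunit of the nitric oxide receptor guanylate cyclase, had 5.40, 5.75 and 5.59 in Og birds, against 6.44, 7.17 and 6.52 in WL birds (-1.13 ± 0.19, adjusted p = 0.0317). SCG2, a granin of secretory granules, had 5.34, 5.40 and 5.0 in Og birds, against 6.27, 5.99 and 6.37 in WL birds (-0.97 ± 0.16, adjusted p = 0.0234). Neither gene's groups overlapped, but WL 2 of GUCY1A2 lay above the other WL birds. Against the same WL birds GUCY1A2 differed by -0.43 in Bl, -0.66 in Hw and -1.18 in Ya.

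The peptidase NAALAD2 went the other way, with 5.96, 6.23 and 6.02 in Og birds, against 5.54, 5.30 and 5.17 in WL birds (0.73 ± 0.13, adjusted p = 0.0317). Its Og birds were not the highest of the series, since Hw birds stood 1.43 above WL. Among the single arrays, Og 3 was needed for NXPH2 (0.0525 without it). The call of RAB23 was lost without Og 2, Og 3, WL 1 or WL 2 (up to 0.0775) and that of SCG2 without Og 3, WL 1 or WL 3 (up to 0.0913). GUCY1A2 was lost whenever an array other than WL 1 was left out (up to 0.101), and NAALAD2 without Og 2, Og 3, WL 2 or WL 3 (up to 0.141).

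APOV1, a small apolipoprotein of yolk particles that hens' livers make under estrogen, had the largest rise of a named gene. Og birds had 6.28, 7.75 and 6.90, against 4.15, 4.0 and 4.57 in WL birds. The Og birds were spread but all lay above the WL birds, whose levels may not exceed background. The rise was 2.74 ± 0.50, or 6.67-fold (adjusted p = 0.0429), and it was lost whenever an array other than Og 1 was left out (up to 0.166). Against the same WL birds APOV1 differed by 3.03 in Bl, 0.05 in Hw and 1.98 in Ya. C3ORF67, a gene without a settled role, had 5.23, 6.71 and 5.87 in Og birds, against 4.08, 3.82 and 4.08 in WL birds. Its rise was 1.94 ± 0.28 (adjusted p = 0.0148; up to 0.0553 without Og 3, WL 2 or WL 3), and Bl birds stood 1.90 above the same WL birds. Og 1 was the lowest Og bird for both genes.

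No other measured member of the yolk precursor and estrogen response list passed. Of its 11 measured genes 1 rose and none fell, beside 0.104% and 0.0874% of all features. In this list 5 lay above 0 and 6 below, and the median was -0.04, beside -0.01 over all features. An unadjusted p under 0.05 was reached by 2 in the higher direction (18.2%, beside 4.43% of all features) and 0 in the lower. The vitellogenins, the main yolk proteins, had levels in both breeds that are not shown to be above background. VTG1 had 4.39, 4.36 and 4.49 in Og birds, against 4.03, 3.93 and 4.22 in WL birds (0.35 ± 0.12, adjusted p = 0.392). VTG2 differed by -0.17 ± 0.14 and the estrogen receptor ESR1 by -0.21 ± 0.33. APOB, the large apolipoprotein of yolk and plasma particles, differed by -0.05 ± 0.09.

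Small RNA genes gave 1 rise and 2 falls. MIR1673 had 6.53, 6.26 and 6.20 in Og birds, against 5.24, 5.68 and 5.46 in WL birds, and the Og birds lay above all 12 others (0.87 ± 0.13, adjusted p = 0.0151). It did not pass against the mean of the other native breeds (adjusted p = 0.2). MIR1803 had 4.26, 4.17 and 3.98 in Og birds, against 4.96, 5.18 and 5.11 in WL birds (-0.94 ± 0.15, adjusted p = 0.0216). Its mean over all arrays is under 5.21, so its levels may not exceed background. SNORD12C, a small nucleolar RNA of the class that guides ribosomal RNA methylation, had 7.64, 7.05 and 6.83 in Og birds, against 8.47, 8.19 and 8.08 in WL birds (-1.07 ± 0.19, adjusted p = 0.042). Its Og 1 lay nearest the WL birds, without overlap. Against the same WL birds SNORD12C differed by -1.45 in Hw, -0.18 in Bl and -0.29 in Ya. It did not pass against the mean of the other native breeds (limma, adjusted p = 0.404). Which form of these 3 small RNAs the probes read is not given in the sources used here. MIR1673 was lost without WL 1 or WL 3 (up to 0.0549), MIR1803 without Og 2, Og 3, WL 2 or WL 3 (up to 0.0795) and SNORD12C without any array except Og 1 (up to 0.162).

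The smallest p of all belonged to a feature with no single symbol, 15448246. It stood at 9.89, 10.26 and 10.41 in Og birds, against 6.35, 6.10 and 6.94 in WL birds, a rise of 3.73 ± 0.31 (adjusted p = 0.000176; up to 0.00264 with 1 array left out). A second such feature, 15545038, had 6.38, 3.87 and 4.96 in Og birds, against 2.60, 2.24 and 1.92 in WL birds (2.82 ± 0.47, adjusted p = 0.0264). The first was high and even across the Og birds, while the second was spread over them and started from a level not shown to be above background. Of the 6 features without a single symbol that fell, 15552093 had the smallest p, at 6.42, 6.68 and 6.02 in Og birds against 7.93, 7.62 and 8.14 in WL birds (-1.52 ± 0.17, adjusted p = 0.00252). Next came 15553496, at 3.83, 3.52 and 3.44 in Og birds against 6.18, 5.21 and 5.32 in WL birds (-1.98 ± 0.25, adjusted p = 0.00633). Against the same WL birds 15552093 differed by -1.14 in Bl, -1.38 in Hw and -1.28 in Ya. For 15553496 these differences were -2.45, -1.4 and -1.79. Neither feature passed against the mean of the other native breeds (limma, adjusted p = 0.627 and 0.928). The call of 15545038 was lost without Og 3, WL 1, WL 2 or WL 3 (up to 0.0957).

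The 10 named genes next in order of p did not pass, and several belong to energy and purine metabolism. XDH, which oxidises purines to uric acid, had 9.76, 9.95 and 9.64 in Og birds, against 10.93, 11.06 and 10.83 in WL birds (-1.15 ± 0.22, adjusted p = 0.0521). The Og birds were below all 12 other birds, but XDH did not pass against the mean of the other native breeds either (adjusted p = 0.229). The mitochondrial isocitrate dehydrogenase IDH2 differed by -0.73 ± 0.14 (adjusted p = 0.0582) and the pyruvate dehydrogenase phosphatase PDP1 by 1.08 ± 0.21 (0.0616). The small heat shock protein HSPB9 had 6.53, 6.05 and 6.53 in Og birds, against 8.78, 7.17 and 8.31 in WL birds (-1.72 ± 0.33, adjusted p = 0.0561). ARHGEF1, TMTC4 and KLHL25 lay above 0, at 1.27, 0.99 and 0.78, and MIR122B, DEK and CPAMD8 below it, at -0.84, -0.61 and -0.57, with adjusted p between 0.053 and 0.0663 for the 6.

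To see which differences set Yeonsan Ogye apart from the other native breeds too, Og was compared with the mean of Bl, Hw and Ya, a contrast whose means leave out the WL birds, while its error is estimated over all 15 arrays, and which shares the Og birds. At an adjusted p under 0.05, 9 features were higher and 4 lower in Og, or 0.071% of those tested (0.0492% and 0.0218%), and 6 of these 13 also passed against WL in the same direction. Feature 15448246 was 3.37 ± 0.25 above the other native breeds (adjusted p = 4.65e-05), with means of 10.19 in Og, 6.83 in Bl, 7.12 in Hw and 6.49 in Ya. CRLF2 was 2.34 ± 0.20 above them (adjusted p = 0.000148), with a mean of 6.88 in Og and 4.54 over the other native breeds. MIR1803 was 1.21 below them on the log2 scale (SE 0.12, adjusted p = 0.000501), with no bird of the other native breeds under 5.03. ATP5E was 0.96 ± 0.13 above them (adjusted p = 0.0123). With an Og or WL bird left out, the first 3 passed every time (adjusted p up to 0.00128, 0.002 and 0.00738), and ATP5E was lost without Og 1 (0.0695) or Og 2 (0.0668).

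The other named genes of this comparison did not pass against WL. PLBD1, a phospholipase B-like lysosomal protein, had 8.21, 7.87 and 8.41 in Og birds, against 8.64 to 9.53 in the other native breeds and 8.63, 8.80 and 8.85 in WL birds. The Og birds were the lowest of all 15. It was 0.93 lower than the other native breeds on the log2 scale (SE 0.12, adjusted p = 0.00951; 0.0668 without Og 2), and its difference from WL was -0.60 ± 0.15 (adjusted p = 0.165). SLC7A10, which carries small neutral amino acids across membranes, was 1.26 ± 0.17 above the other native breeds (adjusted p = 0.0123), with means of 7.19 in Og, 6.65 in Bl, 6.49 in Hw, 4.65 in Ya and 6.90 in WL. The deoxycytidylate deaminase DCTD was 0.77 ± 0.11 above them (0.0123), with means of 6.66 in Og, 6.53 in Hw, 5.56 in Bl, 5.58 in Ya and 6.49 in WL. The peptidase-like DPP10 was 1.01 ± 0.16 above them (0.0322) and the synaptic vesicle protein SYNGR3 0.67 below them on the log2 scale (0.0324). SLC7A10 was lost without Og 1 or Og 2 (up to 0.0668), DCTD without Og 1 (0.0668), DPP10 without Og 2 or Og 3 (up to 0.172) and SYNGR3 without Og 1, Og 2, Og 3 or WL 2 (up to 0.154).

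**Figure D2:**
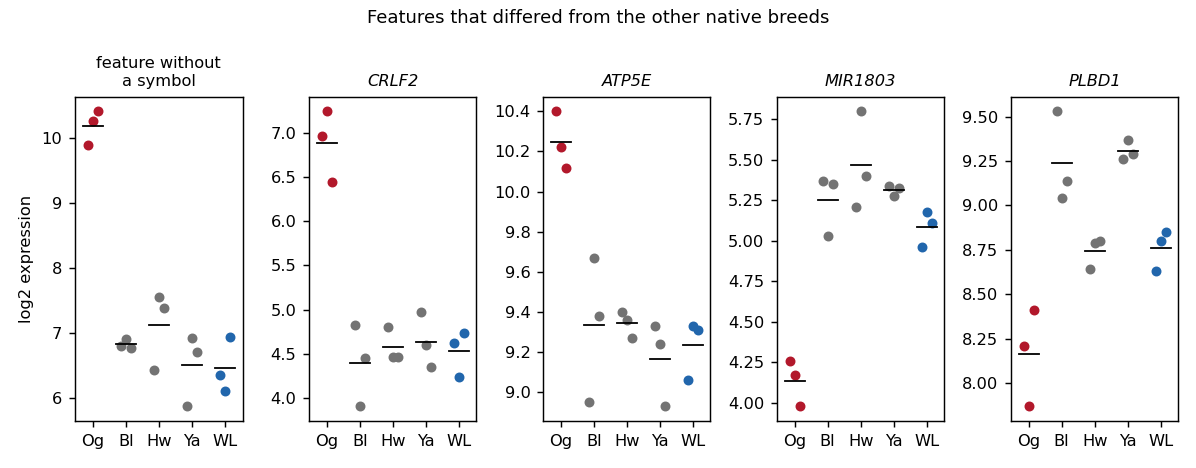
Log2 expression (y axis, own scale per panel, not starting at 0) of feature 15448246, CRLF2, ATP5E, MIR1803 and PLBD1 in each bird of the breeds Og, Bl, Hw, Ya and WL; bars are breed means of 3 birds. The Og birds (red) stand apart from all 12 other birds in every panel, above them in the first 3 and below them in the last 2.

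The genes around EDN3 were examined because of the black skin of the breed. EDN3 itself had 4.62, 4.26 and 4.35 in Og birds, against 4.53, 4.2 and 4.32 in WL birds, a difference of 0.06 ± 0.14 (adjusted p = 0.957). Bird for bird the breeds overlapped, and these levels are not shown to be above background. ATP5E, the epsilon subunit of mitochondrial ATP synthase, had 10.40, 10.22 and 10.12 in Og birds, against 9.06, 9.33 and 9.31 in WL birds. All Og birds lay above all 12 birds of the other breeds, and the rise was 1.01 ± 0.16, or 2.01-fold (adjusted p = 0.0234). The call was lost when any of the 6 arrays was left out (adjusted p up to 0.0884), while the difference stayed between 0.92 and 1.07.

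In the gene order of the chicken assembly GRCg7b, the measured genes between EDN3 and CTSZ are ZNF831, PRELID3B, ATP5E and TUBB1, and all 4 had higher means in Og, although only ATP5E passed. PRELID3B, of a family of mitochondrial lipid transfer proteins, had 8.82, 8.85 and 8.52 in Og birds, against 7.64, 7.80 and 7.41 in WL birds (1.11 ± 0.31, adjusted p = 0.218). Its Og birds too lay above all 12 others, but PRELID3B did not pass against the mean of the other native breeds (adjusted p = 0.158). The zinc-finger gene ZNF831 had 5.64, 6.26 and 6.05 in Og birds, against 5.23, 5.31 and 5.39 in WL birds (0.67 ± 0.16, adjusted p = 0.165). TUBB1, the beta tubulin of thrombocytes, had 6.13, 6.85 and 6.45 in Og birds, against 5.35, 6.18 and 5.59 in WL birds (0.77 ± 0.24, adjusted p = 0.303). Its breeds overlapped, with WL 2 above Og 1, and Bl birds stood 0.72 above the same WL birds.

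The genes on either side of these 4 lay near 0. Beyond TUBB1 the lysosomal protease CTSZ differed by 0.10 ± 0.09 and NELFCD, a subunit of the negative elongation factor, by 0.12 ± 0.13. The peptidase NPEPL1 differed by 0.05 ± 0.26 and the syntaxin STX16 by 0.01 ± 0.13. Further along on that side, PCK1, the gluconeogenic phosphoenolpyruvate carboxykinase, differed by 1.63 ± 1.24, and its neighbour RBM38, an RNA-binding protein, had 9.08, 9.02 and 8.29 in Og birds, against 8.31, 7.74 and 7.35 in WL birds (0.99 ± 0.32, adjusted p = 0.326), with the breeds overlapping. On the other side of EDN3, DDX27 differed by -0.15 and SNRPN by -0.15. DDX27, SNRPN, PCK1 and RBM38 were chosen after their values were seen. Of the 10 measured genes of the EDN3 region list, 1 rose and none fell, beside 0.104% and 0.0874% of all features. In that list 9 lay above 0, and 4 had an unadjusted p under 0.05 in the higher direction, or 40.0%, beside 4.43% of all features. The list was drawn up for this breed's trait with earlier results known, and gene copy number was not measured.

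**Figure D3:**
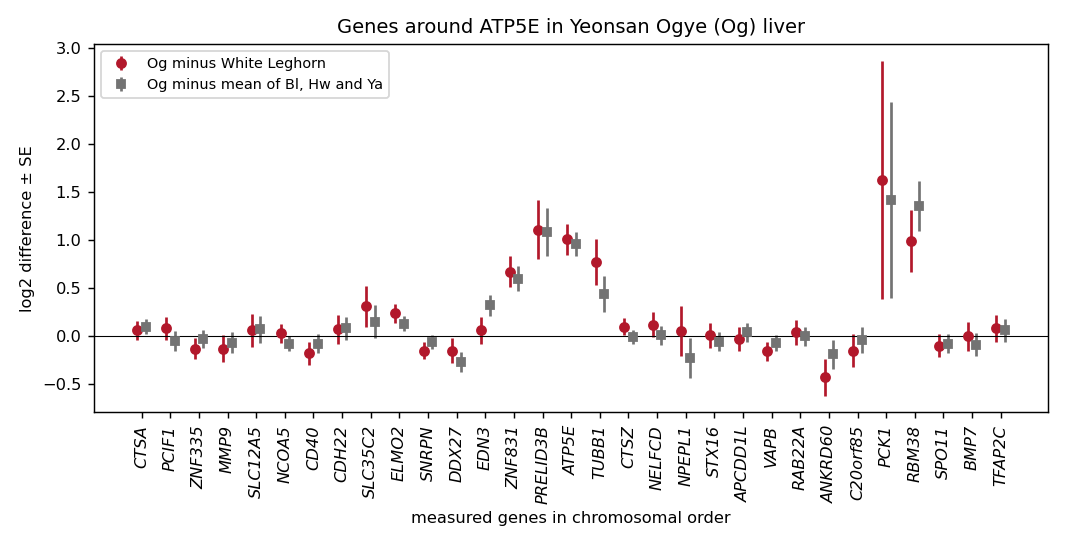
Difference in log2 expression (y axis) with its SE for 31 measured genes in chromosomal order (x axis), 15 on either side of ATP5E. Red circles are Og minus WL and grey squares Og minus the mean of Hwangbong (Hw), Hoengseong Yakdak (Ya) and Hyunin Black (Bl). ZNF831, PRELID3B, ATP5E and TUBB1 stand above 0 next to each other, EDN3 and CTSZ beside them lie near 0 against WL, and PCK1 and RBM38 lie apart from them.

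Pigment cell genes gave no call. Of 19 measured genes of melanocytes and melanin synthesis none passed, 9 lay above 0 and 10 below, and the median was -0.02. TYRP1, an enzyme of melanin synthesis, had 2.56, 2.38 and 2.40 in Og birds, against 2.94, 3.02 and 2.59 in WL birds (-0.40 ± 0.12, adjusted p = 0.248). Both are in the range not shown to be above background, as are the means of 15 of the 19 genes, which are under 5.21.

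GGACT, described above, has TMTC4, a membrane protein that adds mannose in the endoplasmic reticulum, as its neighbour in the same gene order. TMTC4 had 8.04, 8.11 and 8.04 in Og birds, against 6.70, 7.4 and 7.13 in WL birds, a difference of 0.99 ± 0.19 that did not pass (adjusted p = 0.0636). No bird of the 2 breeds overlapped in either gene. The next gene on the GGACT side, PCCA, differed by 0.26 ± 0.18, and NALCN on the other side of TMTC4 by 0.13 ± 0.10. SEPTIN5, beside MIR1673, differed by 0.81 ± 0.21 (adjusted p = 0.199). EAF2, placed 2 measured genes from ARHGEF1, differed by 1.24 ± 0.39 (adjusted p = 0.312). NCALD, placed 3 measured genes from AZIN1, went the other way from AZIN1, at -0.97 ± 0.26 (adjusted p = 0.203). PCCA, NALCN, SEPTIN5, EAF2 and NCALD were chosen after their values were seen.

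No gene of fatty acid and triglyceride synthesis passed over all features, but most members had higher means in Og. Of 26 measured genes 21 lay above 0 with a median of 0.32, and 8 had an unadjusted p under 0.05 in the higher direction (30.8%, beside 4.43% of all features). Against the mean of the other native breeds the median was 0.09, with 18 above 0. ME1, the malic enzyme that supplies reducing power for fatty acid synthesis, had 10.91, 11.49 and 11.49 in Og birds, against 7.75, 9.81 and 10.18 in WL birds (2.05 ± 0.54, adjusted p = 0.199). The groups did not overlap, and WL 1 was far below every other bird of the pair. Against the same WL birds ME1 differed by 1.68 in Bl, 1.38 in Hw and 2.01 in Ya. The fatty acid elongase ELOVL6 had 11.21, 11.41 and 11.42 in Og birds, against 10.26, 10.79 and 11.02 in WL birds (0.66 ± 0.18, adjusted p = 0.203). The desaturase FADS1 had 10.03, 10.40 and 10.43 in Og birds, against 9.26, 9.65 and 9.62 in WL birds (0.78 ± 0.21, adjusted p = 0.201). In both, WL 1 was again the lowest bird. The cytosolic isocitrate dehydrogenase IDH1 went the other way, at -0.55 ± 0.15.

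The size of the lipid synthesis shift depended on single birds. Its median against WL was 0.13 without WL 1 and 0.59 without Og 1, and the count of 8 was 5 without Og 3 and 14 without WL 3. Cholesterol synthesis and uptake had 13 of 18 genes above 0 and a median of 0.44, with 1 gene at an unadjusted p under 0.05 in each direction (5.56% each, beside 4.43% higher and 4.71% lower of all features). The higher count was 5 without Og 1, 12 without WL 3 and 0 without Og 3 or WL 1, and the lower count was 2 without WL 1 and 0 without Og 1, Og 3, WL 2 or WL 3. The sterol sensor SCAP had 9.35, 9.47 and 9.89 in Og birds, against 8.51, 8.85 and 9.22 in WL birds (0.71 ± 0.24, adjusted p = 0.377), while ACAT2 differed by -0.44 ± 0.20. That median was 0.09 without Og 3, 0.09 without WL 1, 0.71 without Og 1 and 0.88 without WL 3. Among 29 genes of fatty acid oxidation and ketogenesis none passed, and the median was -0.03.

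Lipoprotein genes were mixed. Of 22 measured none passed, 13 lay above 0 and the median was 0.11, between 0.01 without WL 3 and 0.18 without WL 1. APOA4, an apolipoprotein of triglyceride-rich particles, had 11.31, 11.40 and 11.58 in Og birds, against 10.93, 10.66 and 10.76 in WL birds (0.65 ± 0.16, adjusted p = 0.165). The hepatic lipase LIPC, which trims plasma lipoproteins, had 7.83, 8.44 and 7.90 in Og birds, against 9.08, 8.98 and 9.15 in WL birds (-1.01 ± 0.36, adjusted p = 0.399). Neither gene's breeds overlapped, and LIPC in Hw was at -2.63 against the same WL birds. GPIHBP1, the endothelial anchor of lipoprotein lipase, differed by 0.39 ± 0.14 at levels not shown to be above background.

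**Figure D4:**
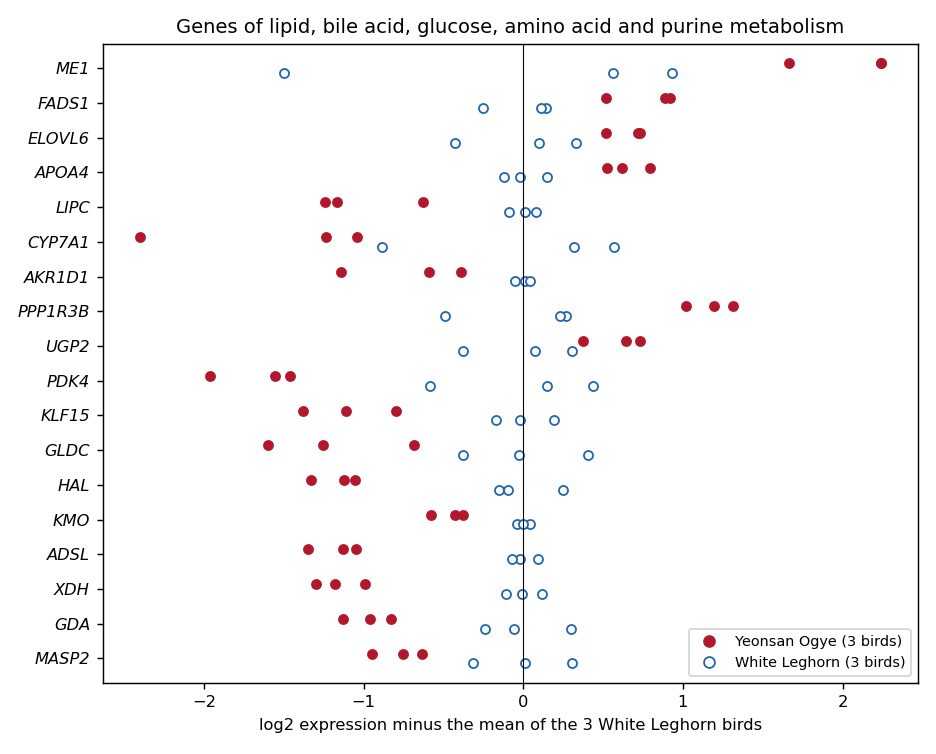
Log2 expression of 18 genes, most of them of lipid, bile acid, glucose, amino acid and purine metabolism and 1 the complement protease MASP2, per bird, as the difference from the mean of the 3 WL birds (x axis, log2 units). Red points are Og birds and open blue circles WL birds. Og and WL birds do not overlap in any of these 18, as in 13.0% of all features. The 18 are a selection from the named genes, and others of these pathways, such as IRS2 and ACAT2, did overlap. The Og birds of ME1, FADS1, ELOVL6, APOA4, PPP1R3B and UGP2 lie to the right of the WL birds and the others to their left. Of these 18 only KLF15 passed the threshold.

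Genes of bile acid synthesis included large differences that did not pass. CYP7A1, the rate-limiting enzyme of bile acid synthesis, had 9.22, 8.05 and 9.41 in Og birds, against 9.57, 11.02 and 10.77 in WL birds (-1.56 ± 0.46, adjusted p = 0.275). The lowest WL bird, WL 1, lay just above the highest Og bird. AKR1D1, a reductase of the same pathway, had 8.74, 8.19 and 8.94 in Og birds, against 9.34, 9.37 and 9.28 in WL birds (-0.71 ± 0.24), and the FGF19 receptor FGFR4 differed by -0.49 ± 0.15. The organic anion transporter SLCO1B1 had 6.21, 6.59 and 6.53 in Og birds, against 4.81, 5.98 and 5.63 in WL birds (0.97 ± 0.28). Of 20 measured genes 12 lay below 0 and the median was -0.17, but -0.09 without Og 3 or WL 1 and 0 to 2 decimals without Og 2.

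Most genes of amino acid breakdown and purine synthesis had lower means in Og, again with none past the threshold. Of 48 genes of amino acid catabolism 38 lay below 0, with a median of -0.24, and 14 had an unadjusted p under 0.05 in the lower direction (29.2%, beside 4.71% of all features). Against the mean of the other native breeds their median was -0.1, with 11 above 0. GLDC, which cleaves glycine, had 9.48, 9.14 and 10.05 in Og birds, against 10.36, 11.14 and 10.71 in WL birds (-1.18 ± 0.29, adjusted p = 0.162). HAL, the first enzyme of histidine breakdown, had 8.33, 8.40 and 8.12 in Og birds, against 9.70, 9.30 and 9.36 in WL birds (-1.17 ± 0.35, adjusted p = 0.279). The kynurenine enzyme KMO had 10.01, 9.81 and 9.96 in Og birds, against 10.43, 10.35 and 10.39 in WL birds (-0.46 ± 0.12, adjusted p = 0.174). In all 3 the lowest WL bird lay above the highest Og bird. The count of 14 was 8 without WL 2 and 9 without WL 3.

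Against the mean of the other native breeds, genes of purine and uric acid synthesis had a median of -0.08, with 6 above 0. Against WL, 18 of these 23 genes lay below 0, with a median of -0.22. In the lower direction 7 had an unadjusted p under 0.05 (30.4%, beside 4.71% of all features). Besides XDH these included ADSL, which acts at 2 steps of purine synthesis, and the guanine deaminase GDA. ADSL had 10.30, 10 and 10.22 in Og birds, against 11.33, 11.44 and 11.28 in WL birds (-1.18 ± 0.26, adjusted p = 0.122). GDA had 6.72, 6.42 and 6.59 in Og birds, against 7.49, 7.85 and 7.31 in WL birds (-0.97 ± 0.24, adjusted p = 0.165). Both sets of birds were well apart. The median against WL was -0.14 without WL 2, and the count of 7 was 4 without Og 2 or without WL 2.

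Genes of glucose and glycogen handling lay slightly higher, with 24 of 32 above 0 and a median of 0.15. None passed, and 3 higher (9.38%, beside 4.43% of all features) and 2 lower (6.25%, beside 4.71%) had an unadjusted p under 0.05. The higher count was 1 without Og 1 and 2 without WL 3, otherwise 3 or 4, and the lower count was 1 without Og 2, Og 3, WL 1 or WL 2. PDK4, which shuts off pyruvate oxidation in fasting, had 5.91, 5.50 and 6.0 in Og birds, against 7.61, 7.90 and 6.88 in WL birds (-1.66 ± 0.39, adjusted p = 0.139). Against the same WL birds PDK4 differed by -1.6 in Bl, -1.72 in Hw and -0.96 in Ya. PPP1R3B, which targets a phosphatase to glycogen, had 10.50, 10.32 and 10.62 in Og birds, against 8.81, 9.57 and 9.53 in WL birds (1.17 ± 0.48, adjusted p = 0.472). UGP2, which makes the sugar donor of glycogen synthesis, differed by 0.58 ± 0.18 and the insulin signalling adaptor IRS2 by 0.63 ± 0.24. Birds of the breeds were apart in PDK4, PPP1R3B and UGP2. When the birds had last fed is not given in the sources used here.

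**Figure D5:**
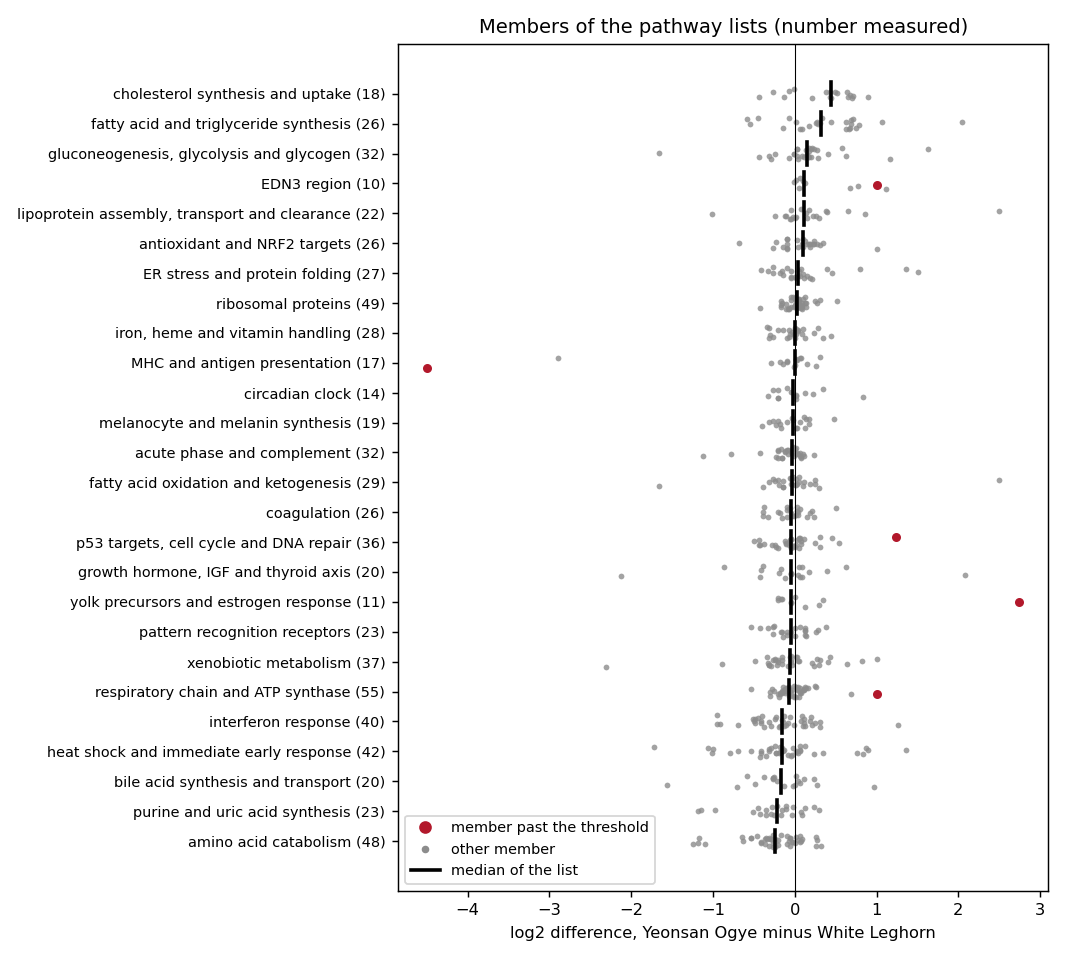
Log2 difference Og minus WL (x axis) of every measured member of the 26 pathway lists, with the number measured in brackets. Grey points are members that did not pass, red points those that did, and black bars list medians. Medians run from -0.24 for amino acid catabolism to 0.44 for cholesterol synthesis, and only 4 genes, ATP5E, B-G, TP53INP1 and APOV1, are red.

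Hormone, clock and detoxification genes showed no passing member. In the growth hormone, IGF and thyroid list 9 of 20 lay above 0 (median -0.04). DIO3, which inactivates thyroid hormone, had 4.22, 4.40 and 3.53 in Og birds, against 8.15, 5.30 and 5.06 in WL birds (-2.12 ± 0.82, adjusted p = 0.437), with WL 1 far above every other bird. DIO1, which activates the hormone, had 10.18, 10.12 and 10.17 in Og birds, against 9.73, 9.75 and 9.77 in WL birds (0.40 ± 0.14, adjusted p = 0.386), and the growth hormone feedback inhibitor SOCS2 differed by -0.86 ± 0.27. The 14 clock genes had a median of -0.02, with 0 at an unadjusted p under 0.05. Of 37 xenobiotic genes 23 lay below 0 (median -0.06). The sulfotransferase SULT had 8.66, 10.25 and 7.51 in Og birds, against 10.32, 11.60 and 11.42 in WL birds (-2.31 ± 0.52, adjusted p = 0.122). Against the same WL birds it was -0.68 in Bl, -2.83 in Hw and 0.49 in Ya.

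Among stress and cell cycle lists only TP53INP1 passed. The p53 targets CCNG1 and MDM2 differed by less, 0.54 ± 0.24 and 0.31 ± 0.11. In their list of 36 genes of p53, cell cycle and DNA repair, 15 lay above 0 and 21 below, with a median of -0.04. An unadjusted p under 0.05 was reached by 3 higher (8.33%, beside 4.43% of all features) and 1 lower (2.78%, beside 4.71%). For CCNG1, Og 2 at 8.31 lay below every WL bird. Heat shock and immediate early genes had 28 of 42 below 0 and a median of -0.16 (-0.08 without WL 1, -0.09 without WL 2). The cochaperone HSPH1 had 7.88, 7.47 and 7.37 in Og birds, against 9.16, 8.99 and 7.75 in WL birds (-1.06 ± 0.37), with WL 3 below Og 1. MYC and SGK1, both quickly induced genes, differed by 0.84 ± 0.22 and 0.90 ± 0.27. The antioxidant and endoplasmic reticulum stress lists had medians of 0.10 and 0.04, with TXNRD1, a thioredoxin reductase, at -0.68 ± 0.20.

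Among the immune lists B-G was the only member that passed. Of 40 interferon response genes none passed, 27 lay below 0 and the median was -0.15, with DDX60, a helicase of the response, at 1.26 ± 0.47. The same genes had a median of -0.45 against the mean of the other native breeds, with 6 above 0. Those breeds were not alike. Averaged over these genes, the deviation from the mean over all arrays was 0.5 in Bl and 0.29 in Hw. It was -0.27 in Ya, near the -0.34 of Og, and -0.18 in WL. The lectin pathway protease MASP2 had 8.01, 7.70 and 7.89 in Og birds, against 8.33, 8.66 and 8.95 in WL birds (-0.78 ± 0.17, adjusted p = 0.0999). No bird overlapped, and the 32 acute phase and complement genes had a median of -0.03. Antigen presentation, pattern recognition and coagulation had medians of 0 to 2 decimals, -0.05 and -0.04.

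ATP5E is also a member of the respiratory chain list. Of 55 respiratory chain and ATP synthase genes 1 passed (beside 0.191% of all features), 35 lay below 0 and the median was -0.07. The catalytic subunit ATP5B had 12.50, 12.49 and 12.68 in Og birds, against 11.83, 11.90 and 11.86 in WL birds (0.69 ± 0.18, adjusted p = 0.174), while ATP5C1 differed by -0.28 ± 0.12 and NDUFA7 by -0.53 ± 0.20. The 49 ribosomal protein genes had a median of 0.03, and the 28 genes of iron, heme and vitamin handling a median of 0 to 2 decimals.

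Among the cell marker lists the largest median was that of red cells. Of 12 erythroid markers 9 lay above 0 and none passed, with a median of 0.28, and their summed level was 11.03 to 11.98 in Og birds, against 10.72 to 10.85 in WL birds. The alpha globin HBAD had 10.10, 11.01 and 9.23 in Og birds, against 8.95, 8.85 and 9.06 in WL birds (1.16 ± 0.34, adjusted p = 0.275). Against the same WL birds HBAD differed by 1.49 in Bl, 1.14 in Hw and 1.07 in Ya. The erythroid markers RHCE, TAL1 and EPB42, chosen after their values were seen, went the other way, at -0.77, -0.25 and -0.09. Heterophil and thrombocyte markers had 6 of 10 above 0 and 1 that passed, GP1BB (beside 0.191% of all features). Their summed level was 9.38 to 9.72 in Og birds, against 9.10 to 9.57 in WL birds. TUBB1 of the EDN3 region is on this list as well. Whether blood in the tissue has a part in the GP1BB, TUBB1 or other results was not tested.

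The remaining cell marker lists had smaller medians. Stellate cell and fibroblast markers had 12 of 16 above 0 and a median of 0.20, led by RELN, a secreted matrix protein, at 8.37, 8.89 and 9.58 in Og birds against 8.10, 7.80 and 7.86 in WL birds (1.03 ± 0.25, adjusted p = 0.165). The stellate and fibroblast markers LUM, POSTN, FBLN1 and PDGFRA, chosen after their values were seen, lay below 0, at -0.63, -0.57, -0.31 and -0.23. The summed level of this list was 11.86 to 12.13 in Og birds, against 11.72 to 12.12 in WL birds. Macrophage markers had 8 of 10 below 0 (median -0.08), and their summed level was 13.26 to 13.52 in Og birds, against 13.38 to 13.46 in WL birds. T and NK cell, B cell, endothelial and bile duct markers had medians between -0.09 and 0.09. Hepatocyte markers summed to 16.80 to 16.81 in Og birds, against 16.73 to 16.80 in WL birds. The 16 measured genes of gallbladder, pancreas and muscle summed to 8.67 to 8.85 in Og birds, against 8.59 to 9.18 in WL birds.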

How the data were processed

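Each liver's total RNA was made into biotin-labelled cDNA and hybridised to an Affymetrix whole-transcript array, per the labels' protocols. Per the submitters' processing notes, RMA in Affymetrix Expression Console 1.3.1 made the deposited values, which are on a log2 scale, 1 per feature and bird, and already normalised across arrays. The summarisation level, probe filter and genome build of that step are not given in the sources used here. Scanner files were not used. The table held 18308 features, 0.55 to 14.52 on the log2 scale, with 0 missing values. The platform annotation gave 1 symbol to 12300 features, several to 256 and none to 5752, and updating through RefSeq (GRCg7b) changed 0 of them. RefSeq served only for names and gene order.

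All 15 arrays entered 1 model of 5 breed means in limma 3.58.1 under R 4.3.3 (lmFit, eBayes), with 10 residual and 3.89 prior degrees of freedom and a median SE of 0.15 for Og minus WL. Tests were two-sided, and Benjamini-Hochberg adjustment ran over all features, with a threshold of 0.05. Having 3 birds per breed limits precision: a p from exact permutation of 3 against 3 cannot go below 0.1. P-values rest on the spread between birds, since the labels call the arrays biological replicates, but that spread is pooled over the 5 breeds. It can differ from that of the Og and WL birds alone. With those 6 arrays B-G, for example, did not pass (limma, adjusted p = 0.227).

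The rule for named genes took every passing feature with 1 symbol against WL, the 10 next by p, those passing against the other native breeds, up to 3 members per direction with the smallest unadjusted p under 0.05 from each pathway list, all EDN3 region and yolk genes, and set cell markers. Other genes named were chosen after their values were seen. Members, the 36 lists (1265 symbols, 801 measured) and the rule were chosen with earlier results of these data known. In lists, the feature with the highest mean stood for its gene. The level of 5.21 marks off the third of features dimmest on average. Summed levels are log2 of the sum of unlogged values. The alternatives were other variance moderation, array weights, further normalisations, filters, the 6 arrays alone, a replicate block and leaving out each array. The fit was tested on simulated data.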

Additional observations from a re-analysis of the deposited data

Results flagged for a closer look

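The 6 features listed here differed in Yeonsan Ogye both from White Leghorn and, by the test of that difference itself, from the mean of the 3 other native breeds. Feature 15448246 was 3.37 above the other native breeds, CRLF2 2.34, feature 15545038 2.75 and ATP5E 0.96, and MIR1803 was at -1.21. A further feature without a single symbol, 15467823, had 5.24, 5.54 and 5.73 in Og birds, against 4.57, 4.77 and 4.41 in WL birds. It stood 0.89 above the other native breeds (limma, adjusted p = 0.0165). Its feature number lies between those of ZNF831 (15467819) and TUBB1 (15467827) of the EDN3 region. Whether it reads that region was not tested. The passing of 15467823 against the other native breeds was lost without Og 2 (0.11) or Og 3 (0.0869). Feature 15545038 passed against them with any Og or WL bird left out. Groups of 3 birds are too small for a test of single birds that stand apart.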

How the results depend on the processing

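Against WL, the count of 35 features (19 higher, 16 lower) stayed within 1.5 times under trend and robust moderation, 2 further normalisations and 2 filters. It was 5 (4 higher, 1 lower) with the 6 arrays alone, 4 of them shared, where CRLF2, TP53INP1 and GGACT passed and 20 other named genes did not, and 53 (29 lower) with array weights, 34 shared. With 1 array left out it ranged from 12 to 39 (7 to 21 higher, 4 to 18 lower). Against the other native breeds, the count of 13 was 7 without the features whose means are under 5.21, 8 with 1 feature per gene, and 5 to 19 with 1 array left out; fewer features were tested under both filters. The number of lists with a median beyond 0.1 was 14, and 12 to 16 under the alternatives. No difference that passed changed sign under any of these. The replicate number as a block gave 26 features, 23 of them shared (12 higher), and 19 against the other native breeds. Same-numbered Og and WL birds deviated together by r = 0.239, 0.0951 and 0.207 across features. The same r was not computed for differently numbered birds, so whether the numbers pair birds was not tested. The cause of these shifts was not tested. With 3 birds per breed and unmeasured background, small differences and dim features are the least certain.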

Other observations

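Some genes outside the naming rule, chosen after their values were seen, had wide spreads between birds of a breed. ANGPTL4, a fasting-induced inhibitor of lipoprotein lipase, had 11.57, 11.17 and 11.50 in Og birds, against 7.21, 9.32 and 10.21 in WL birds, a difference of 2.50 ± 1.32 that did not pass (limma, adjusted p = 0.609). The Og birds were even and all above the WL birds, which were widely spread. BF2, a class I MHC gene, had 10.33, 3.22 and 8.69 in Og birds, against 11.29, 8.41 and 11.22 in WL birds (-2.89 ± 2.03, adjusted p = 0.745), so Og 2 was low and Og 1 and Og 3 lay within the WL range. MHC genes differ in sequence between haplotypes, and whether sequence under the probes differs between the birds was not tested. DIO2, which activates thyroid hormone in tissues, had 9.57, 11.37 and 8.71 in Og birds, against 6.23, 9.73 and 7.45 in WL birds (2.08 ± 1.11, adjusted p = 0.613). PCK1, of gluconeogenesis, had 9.04, 11.95 and 9.79 in Og birds, against 8.75, 8.63 and 8.52 in WL birds, with Og 2 the highest for both genes.

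Further members of the lipid and amino acid lists were also chosen after their values were seen. That they lay on the side of their list's median can follow from that choice. On the other side of 0 were 5 of 26 genes of fatty acid and triglyceride synthesis and 10 of 48 of amino acid catabolism. FASN, the fatty acid synthase, had 12.78, 12.52 and 13.00 in Og birds, against 11.35, 12.14 and 12.55 in WL birds (0.75 ± 0.27, adjusted p = 0.403), with WL 3 just above Og 2. PLIN2, a lipid droplet coat protein, had 12.05, 12.86 and 12.62 in Og birds, against 10.75, 11.34 and 12.24 in WL birds (1.07 ± 0.37, adjusted p = 0.378). AASS, of lysine breakdown, had 6.56, 7.86 and 7.07 in Og birds, against 8.11, 8.74 and 8.39 in WL birds (-1.25 ± 0.44, adjusted p = 0.389). FASN, PLIN2 and AASS did not pass.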
